A study of Oryza sativa with 3 samples.

Results

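The peaks described here are the 1356 peaks on rice chromosomes 3 and 7 in 3 lists of 5-hydroxymethylcytosine (5hmC) capture peaks, out of 10250 peaks in all and 9855 on the nuclear chromosomes. A peak was taken by its chromosome name alone, whatever its position, length or height, while the pair of chromosomes was chosen with earlier results of these data known. Chromosome 3 carried 552 of them and chromosome 7 carried 804. Each list came from 1 library of genomic DNA from panicles of 3 to 4 mm, grown in a test field, with no treatment named in the labels. The first library was from 93-11, an indica line and pollen parent. The second was from LYP9, the commercial hybrid of 93-11 and PA64s, and the third from PA64s, the male-sterile seed parent. The lists held 221, 184 and 147 peaks on chromosome 3 and 322, 278 and 204 on chromosome 7 in 93-11, LYP9 and PA64s. With 1 library per cultivar there was no replicate error to set a difference against, and no p-value is given. Intervals are exact 95% intervals for counting error only, and neighbouring peaks are not independent of each other, so the true uncertainty is wider.

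Cytosine in plant DNA is methylated in several sequence contexts, mostly over transposons and other repeats, and 5hmC is an oxidised form of 5-methylcytosine. In mammals TET enzymes make it during demethylation, while in plants it is scarce and its origin is debated. Per the labels' protocol and description the libraries were made by chemical labelling, although another label names an antibody against 5hmC, which the protocol describes for dot blots. The chemical capture places a glucose carrying an azide on 5hmC with a glucosyltransferase, adds biotin by click chemistry and collects the fragments on streptavidin. Chromosomes 3 and 7 share blocks of duplicated genes left by a whole-genome duplication in an ancestor of the grasses. They are therefore distant relatives whose peaks can be set side by side.

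Chromosome 7 carried peaks at about the average density of the nuclear chromosomes, and chromosome 3 was among the 3 sparsest. In 93-11 the density was 6.07 peaks per Mb on chromosome 3 (5.30 to 6.93) and 10.8 on chromosome 7 (9.69 to 12.1). In LYP9 it was 5.05 (4.35 to 5.84) and 9.36 (8.29 to 10.5), and in PA64s 4.04 (3.41 to 4.75) and 6.87 (5.96 to 7.88). The intervals of the chromosomes did not overlap in any list. Chromosome lengths were measured to the end of the last peak seen in the 3 lists, 36403791 on chromosome 3 and 29696611 on chromosome 7. The density ratio of chromosome 7 over chromosome 3 was 1.79 in 93-11 (1.50 to 2.13), 1.85 in LYP9 (1.53 to 2.24) and 1.70 in PA64s (1.37 to 2.12). Over all nuclear chromosomes the densities were 10.7, 9.40 and 6.46 peaks per Mb in 93-11, LYP9 and PA64s. Chromosome 3 ranked 12, 11 and 10 of the 12 chromosomes in the same order, and chromosome 7 ranked 7, 7 and 6. Chromosomes 1 and 2 were the other sparse ones, as the plot of density by chromosome shows. The order of the lists was the same on both chromosomes. 93-11 had 1.50 times as many peaks as PA64s on chromosome 3 and 1.58 times on chromosome 7, against 1.66 times over the nuclear chromosomes. Peaks covered 0.0841% of chromosome 3 and 0.154% of chromosome 7 in 93-11, and 0.0601% and 0.0891% in PA64s.

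**Figure D1:**
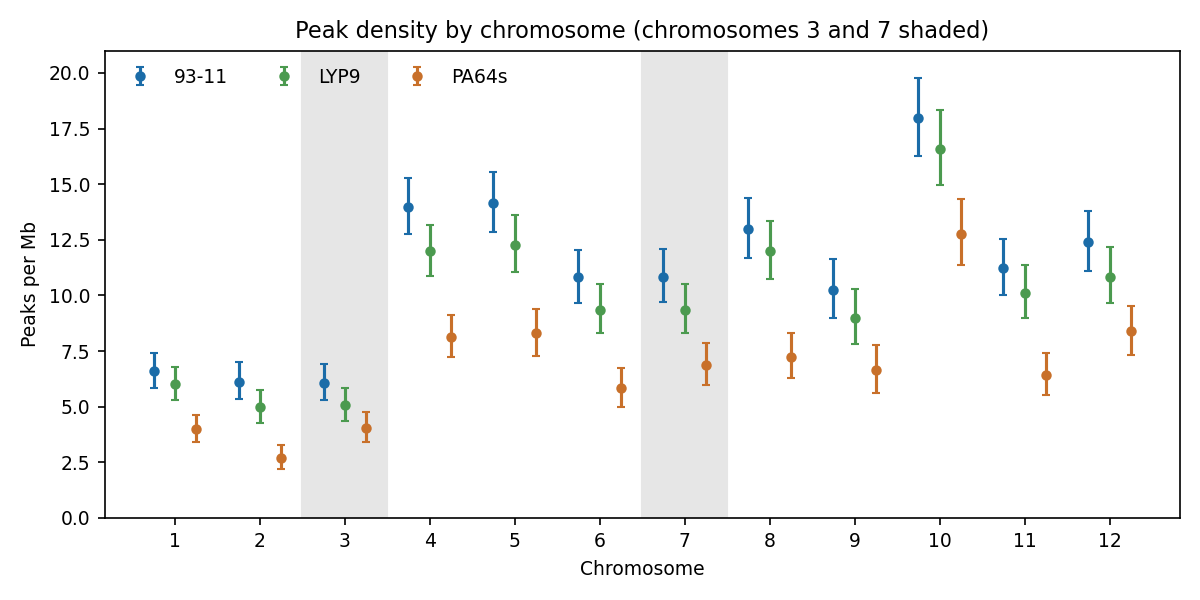
Peaks per Mb (vertical axis) on each of the 12 nuclear chromosomes (horizontal axis) in 93-11, LYP9 and PA64s. Points are densities, bars are exact 95% Poisson intervals, and chromosomes 3 and 7 are shaded; chromosome 3 lies at 4.04 to 6.07 peaks per Mb and chromosome 7 at 6.87 to 10.8.

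Each chromosome had a single window of 1 Mb far above all its others, at the same place in the 3 lists. On chromosome 3 it ran from 13 to 14 Mb, with 78 peaks for 93-11, 73 for LYP9 and 59 for PA64s. For chromosome 7 it ran from 9 to 10 Mb and held 95, 86 and 72. The chromosome 3 window held 35.3% of that chromosome's peaks in 93-11 (29.0 to 42.0), 39.7% in LYP9 (32.6 to 47.1) and 40.1% in PA64s (32.1 to 48.5). The chromosome 7 window held 29.5% (24.6 to 34.8), 30.9% (25.6 to 36.7) and 35.3% (28.7 to 42.3). These intervals overlap between the chromosomes in every list. Next in density on chromosome 3 was the window from 19 to 20 Mb with 16, 10 and 14 peaks, followed by 3 to 4 Mb with 9, 10 and 9. The next of chromosome 7 were 6 to 7 Mb with 29, 24 and 16 and 11 to 12 Mb with 21, 12 and 12. The densest 10% of windows, 4 on chromosome 3 and 3 on chromosome 7, held 50.2%, 55.4% and 61.9% of the peaks on chromosome 3 in 93-11, LYP9 and PA64s, and 45.0%, 44.6% and 49.5% on chromosome 7. Chromosome 7 lay at −5.20, −10.8 and −12.4 percentage points relative to chromosome 3, and the intervals of the chromosomes overlapped in each list. The windows were picked in each list by the counts of these same peaks, which the intervals do not take into account.

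Away from these windows chromosome 7 still carried the more peaks. The median window of chromosome 3 held 3, 3 and 1 peaks in 93-11, LYP9 and PA64s, and 2, 4 and 7 of its 37 windows were empty. The median window of chromosome 7 held 6.5, 6 and 4 peaks, and 0, 0 and 3 of its 30 windows were empty. Outside the densest window, chromosome 3 carried 4.04, 3.14 and 2.49 peaks per Mb and chromosome 7 carried 7.91, 6.69 and 4.60. The ratio of chromosome 7 over chromosome 3 was then 1.96 in 93-11 (1.58 to 2.43), 2.13 in LYP9 (1.68 to 2.72) and 1.85 in PA64s (1.40 to 2.45). These intervals overlap those of the whole chromosomes in every list. The densest window exceeded the density elsewhere by factors of 19.3, 23.3 and 23.7 on chromosome 3 and 12.0, 12.9 and 15.7 on chromosome 7.

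**Figure D2:**
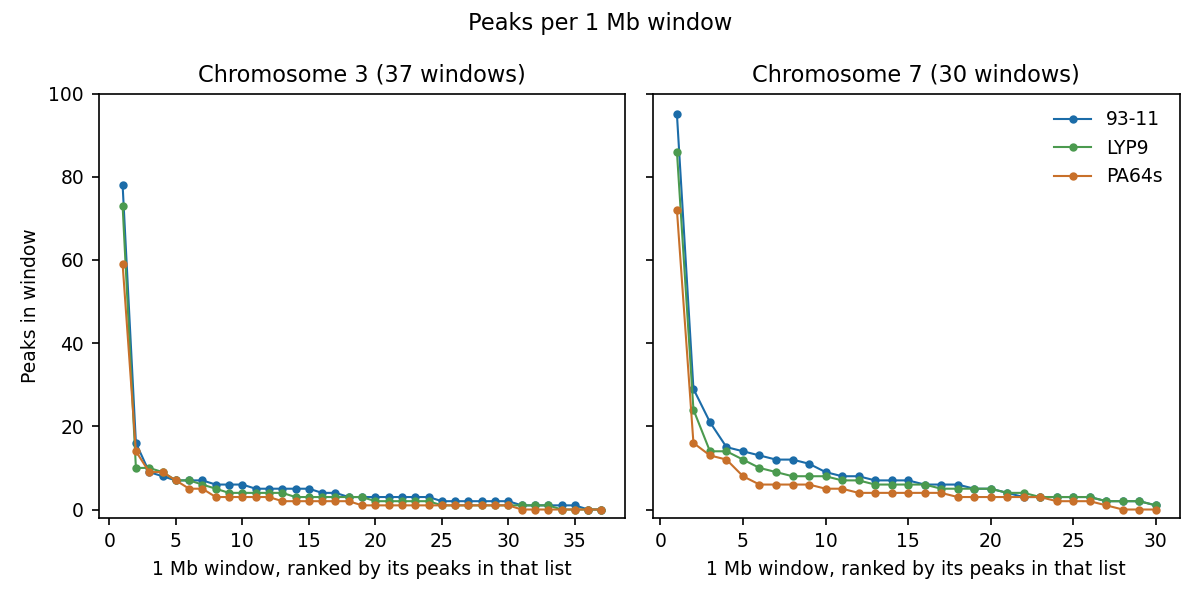
Peaks in each window of 1 Mb (vertical axis), ranked within each list from the densest to the sparsest (horizontal axis), for the 37 windows of chromosome 3 and the 30 of chromosome 7. The first window stands at 59 to 78 peaks on chromosome 3 and 72 to 95 on chromosome 7, and the next at 10 to 16 and 16 to 29.

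The cluster of chromosome 3 was the more compact of the pair. The middle 80% of its summits spanned 181 kb for 93-11 and 177 kb for LYP9 as well as PA64s, against 356, 360 and 354 kb in the chromosome 7 window. Bins of 50 kb with a peak numbered 7, 6 and 5 of 20 on chromosome 3 and 13, 12 and 11 of 20 on chromosome 7. The fullest bin on chromosome 3 was the same in every list, from 13450001 to 13500000, with 25, 27 and 24 peaks. On chromosome 7 it lay from 9750001 to 9800000 in 93-11 and LYP9, with 17 and 18 peaks, and from 9550001 to 9600000 in PA64s, with 11. When peaks of all lists no more than 10 kb apart were joined into runs, the largest run of chromosome 3 went from 13429966 to 13507595 and held 39, 39 and 32 peaks. The largest of chromosome 7 went from 9589714 to 9605797 and held 15, 14 and 13. Outside the densest windows, the runs with the most peaks were a stretch of 29.8 kb from 19548482 to 19578280 on chromosome 3, with 6, 5 and 9 peaks, and one of 28.2 kb from 6381636 to 6409809 on chromosome 7, with 12, 12 and 10. Neighbouring peaks of 1 list at most 500 bp apart made up 39.0%, 48.6% and 43.1% of neighbours in the chromosome 3 window in 93-11, LYP9 and PA64s, and 2.11%, 5.45% and 10.3% elsewhere on it. For chromosome 7 these were 42.6%, 37.6% and 32.4% in the window and 11.5%, 13.1% and 12.2% elsewhere. Over the nuclear chromosomes, dense stretches included, they were 23.1%, 22.8% and 22.5%. Runs and bins were defined after the windows had been seen.

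**Figure D3:**
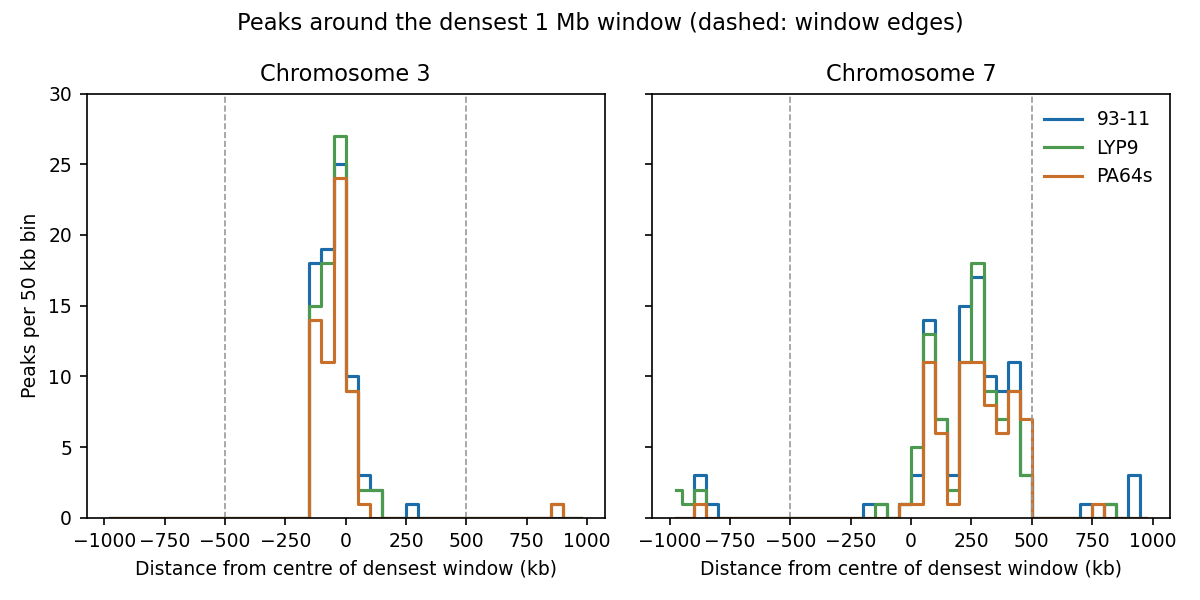
Peaks per bin of 50 kb (vertical axis) against the distance of the bin from the centre of the densest window of 1 Mb (horizontal axis, kb), for each list. Dashed lines mark the window's edges; the chromosome 3 cluster has up to 27 peaks per bin in 5 to 7 bins with a peak, and that of chromosome 7 up to 18 in 11 to 13.

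The clusters also stood on a raised local background. MACS, the peak caller, sets for each peak a background that is at least the genome-wide expectation and higher where tags are frequent nearby, and the authors' fold enrichment is the pileup (extended tags covering the summit) over this background. Pileup divided by fold gave the background in tags, expressed here as a multiple of the genome-wide value, which was 2.13 tags for 93-11, 2.09 for LYP9 and 2.48 for PA64s. Tags of neighbouring peaks enter this background, so it moves with peak density. On chromosome 3 the background was over 2 times the genome-wide value at 46 of 78 peaks of the densest window in 93-11, 52 of 73 in LYP9 and 23 of 59 in PA64s. Elsewhere on the chromosome it was so at 10 of 143, 3 of 111 and 6 of 88. The numbers for chromosome 7 were 45 of 95, 44 of 86 and 38 of 72 in the window and 15 of 227, 16 of 192 and 6 of 132 elsewhere. Over whole chromosomes the shares were 25.3%, 29.9% and 19.7% on chromosome 3 and 18.6%, 21.6% and 21.6% on chromosome 7. Over all nuclear peaks they were 17.7%, 18.1% and 16.9%, and chromosome 10 had the highest, 37.6%, 39.2% and 33.6%.

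The highest backgrounds were at 1 end of the chromosome 3 cluster. In the run from 13351465 to 13374438, 23.0 kb with 15, 11 and 10 peaks, the median background was 9.97 times the genome-wide value in 93-11, 9.69 in LYP9 and 6.70 in PA64s. For chromosome 7 the highest was in the run that began at 9589714, at 4.78, 4.54 and 3.50 times. PA64s was lowest in both runs. Without a control library, tags captured through 5hmC and tags from any other source cannot be told apart.

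Pileups were higher in the densest windows, while median fold enrichments had overlapping intervals. Pileups are given per 1000000 of the tags counted in each list's header, as scaled pileups. On chromosome 3 the median was 4.25 in the window and 2.00 elsewhere for 93-11, 4.56 and 1.98 for LYP9, and 3.18 and 1.76 for PA64s. On chromosome 7 it was 3.40 and 2.10, 3.47 and 2.18, and 2.89 and 1.76. The intervals of window and remainder did not overlap in any of these 6 pairs. Peaks were called against their local background, so a peak on a raised background needed a higher pileup to be listed. The comparison of pileups is therefore not independent of the background, which was raised in the windows. The median fold on chromosome 3 was 7.90 in the window and 7.89 elsewhere in 93-11, 8.32 and 8.60 for LYP9 and 8.28 and 6.85 for PA64s. On chromosome 7 it was 8.45 in both places in 93-11, 8.46 and 8.60 for LYP9 and 6.96 and 7.25 for PA64s. The intervals of the median fold overlapped in all 6 pairs, with the widest gap in value on chromosome 3 of PA64s.

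**Figure D4:**
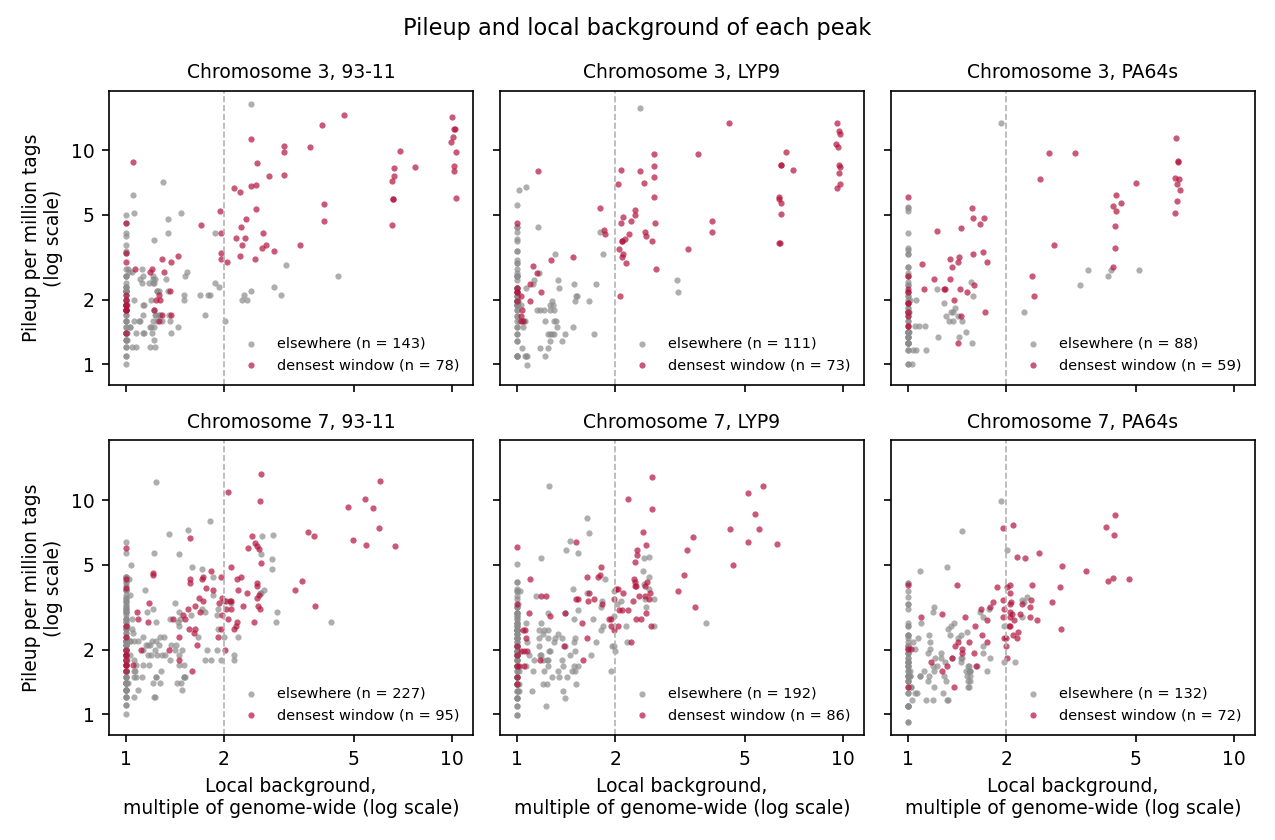
Scaled pileup per 1000000 tags (vertical axis, log scale) against the local background as a multiple of the genome-wide value (horizontal axis, log scale) for every peak of chromosome 3 (top) and chromosome 7 (bottom) in each list. Red points are peaks of the densest window and grey points those elsewhere; the red points of chromosome 3 reach a background of 10.3 in 93-11 and 9.78 in LYP9, those of chromosome 7 reach 6.69 and 6.28.

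Over whole chromosomes, typical peaks of 3 and 7 were alike in height. The median scaled pileup was 2.20 on chromosome 3 and 2.40 on chromosome 7 in 93-11, 2.38 and 2.48 for LYP9 and 2.18 and 2.09 for PA64s. The ratio of chromosome 7 over chromosome 3 was 1.09, 1.04 and 0.962, and bounds built from the ends of the separate intervals ran from 0.821 to 1.29 over the 3 lists. They do not show that the chromosomes are equal. The upper tails lay apart in value. The highest 10% of chromosome 3 peaks began at a scaled pileup of 7.59 in 93-11, 7.98 in LYP9 and 5.72 in PA64s, against 5.09, 5.09 and 4.02 on chromosome 7. Over the nuclear chromosomes it began at 6.01, 6.07 and 5.19. Elsewhere than in the densest window the highest 10% began at 3.38, 3.37 and 2.97 on chromosome 3 and 4.04, 3.77 and 3.26 on chromosome 7. The order of the tails was thus the other way round once the windows were left out.

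Typical lengths were alike too. The median was 107 bp on chromosome 3 and 106 bp on chromosome 7 in 93-11, 106 and 102 bp in LYP9, and 109 and 106 bp in PA64s, against 108, 105 and 107 bp over the nuclear chromosomes. A peak cannot be shorter than the extended tag of 83 bp in 93-11 and 81 bp in the others. Exactly that length was found for 25, 22 and 14 peaks of chromosome 3 (11.3%, 12.0% and 9.52%). On chromosome 7 it was found for 37, 28 and 22 (11.5%, 10.1% and 10.8%), against 10.7%, 10.7% and 9.77% over the nuclear chromosomes. Peaks of 200 bp or more made up 14.9% of chromosome 3 and 15.5% of chromosome 7 in 93-11, and 16.8% and 14.0% in LYP9. In PA64s they made up 20.4% of chromosome 3 (30 of 147, 14.2 to 27.8) and 7.84% of chromosome 7 (16 of 204, 4.55 to 12.4), so that the intervals did not overlap in that list alone. Over the nuclear chromosomes the shares were 14.5% in 93-11, 14.1% in LYP9 and 14.8% in PA64s (13.4 to 16.3). The PA64s interval of chromosome 3 included that nuclear share, and the interval of chromosome 7 lay below it. Among these long peaks of PA64s, 18 of the 30 on chromosome 3 and 8 of the 16 on chromosome 7 were in the densest window. The median length in the window was 119 bp on chromosome 3 and 117 bp on chromosome 7 in 93-11, against 100 and 105 bp elsewhere.

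The longest peaks lay at few places. On chromosome 3, the longest of 93-11 ran from 13467584 to 13468271 (688 bp), that of LYP9 from 13467184 to 13468279 (1096 bp) and that of PA64s from 13467192 to 13467823 (632 bp), all at the same site of the dense cluster. The next were from 13385745 to 13386283 in 93-11 (539 bp), from 13477612 to 13478151 in LYP9 (540 bp) and from 29209760 to 29210215 in PA64s (456 bp). On chromosome 7, a single site gave the longest peak in LYP9, 908 bp from 17955070, and in PA64s, 949 bp from 17955035. In 93-11 the longest was a peak of 689 bp from 19803518 to 19804206. The next longest began at 9953214 in 93-11 (665 bp), at 9953218 in LYP9 (613 bp) and at 9712945 in PA64s (512 bp). Of these 12 peaks only that from 29209760 was absent from 1 of the lists.

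Peaks recurred between lists at overlaps of 1 bp or more, and the shares were higher in value on chromosome 7. On chromosome 3, 61.1% of the 93-11 peaks (54.3 to 67.6), 73.9% of the LYP9 peaks (66.9 to 80.1) and 67.3% of those of PA64s (59.1 to 74.8) recurred in at least 1 other list. On chromosome 7 the shares were 68.0% (62.6 to 73.1), 77.7% (72.3 to 82.5) and 78.4% (72.1 to 83.9). Over the nuclear chromosomes they were 66.1%, 76.5% and 72.2%, between the values of both chromosomes. They were higher on chromosome 7 by 6.93, 3.78 and 11.1 percentage points, and the intervals of the chromosomes overlapped in each list. The lists differ in length, which sets a ceiling on these shares. Of 93-11 peaks, 38.9% on chromosome 3 and 43.5% on chromosome 7 were found in PA64s, and 56.1% and 63.4% in LYP9, against 39.0% and 63.0% over the nuclear chromosomes. Of PA64s peaks, 59.9% and 71.6% were found in 93-11, and 59.2% and 69.6% in LYP9, against nuclear shares of 65.4% and 66.5%. Of LYP9 peaks, 67.9% and 73.0% were found in 93-11, and 46.2% and 50.0% in PA64s, against nuclear shares of 71.9% and 45.4%.

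Joining overlapping peaks gave 327 regions on chromosome 3 and 438 on chromosome 7. Regions in all 3 lists numbered 74 on chromosome 3 (22.6%, 18.2 to 27.6) and 125 on chromosome 7 (28.5%, 24.4 to 33.0), against 25.3% over the nuclear chromosomes. Regions of 93-11 and LYP9 without PA64s made up 15.0% and 17.4%, against 19.1% over the nuclear chromosomes. Those of LYP9 and PA64s without 93-11 made up 3.36% and 2.97%, against 2.79%, and those of both parents without the hybrid 3.36% and 3.42%, against 2.22%. Regions in 1 list were 86, 48 and 48 on chromosome 3 and 103, 62 and 44 on chromosome 7 for 93-11, LYP9 and PA64s. As shares these were 26.3%, 14.7% and 14.7% on chromosome 3 and 23.5%, 14.2% and 10.0% on chromosome 7, near the nuclear 24.1%, 14.7% and 11.9%.

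The dense windows of both chromosomes were alike in sharing, and the remainders lay apart in value. In the window, 52.8% of 89 regions on chromosome 3 (41.9 to 63.5) and 54.2% of 107 on chromosome 7 (44.3 to 63.9) were in all 3 lists. Elsewhere it was 11.3% of 238 (7.61 to 16.1) and 20.2% of 331 (16.0 to 25.0), with intervals that overlapped slightly. Of the PA64s peaks outside the window, 29.5% on chromosome 3 (26 of 88, 20.3 to 40.2) and 51.5% on chromosome 7 (68 of 132, 42.7 to 60.3) were in all lists. The corresponding shares were 18.9% (12.8 to 26.3) and 29.5% (23.7 to 35.9) in 93-11, and 23.4% (15.9 to 32.4) and 35.4% (28.7 to 42.6) in LYP9. Intervals were separate in PA64s and overlapped in 93-11 and LYP9. Over all nuclear peaks, dense windows included, the shares were 59.8% in PA64s, 35.9% in 93-11 and 40.7% in LYP9. Both remainders lay below these in value in every list. This split by window was made after the windows were seen.

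**Figure D5:**
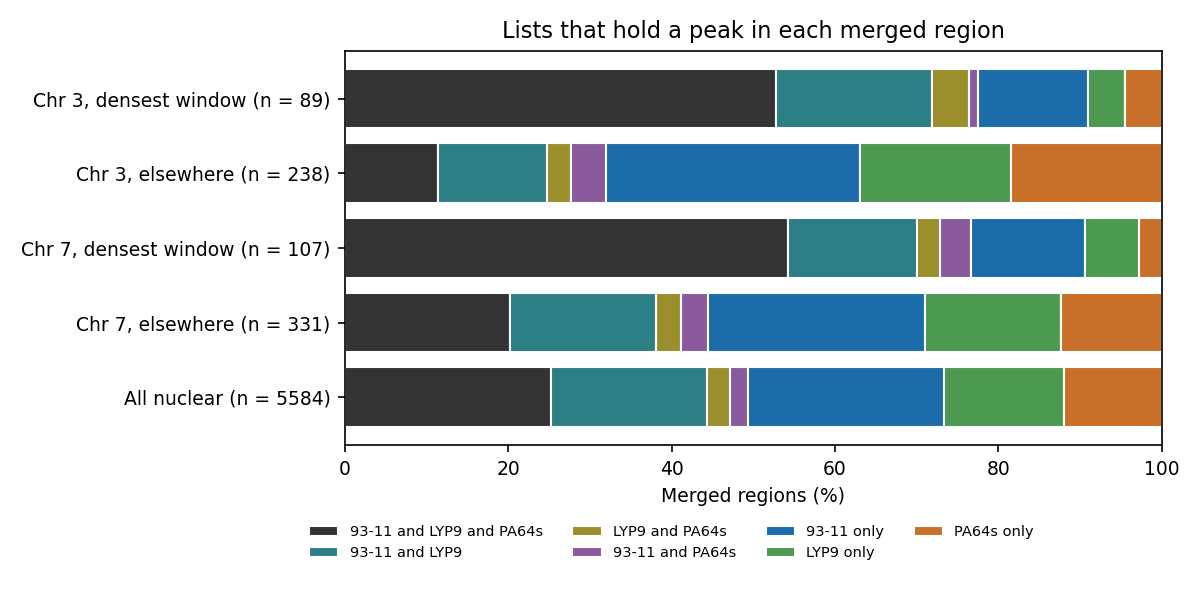
Shares (horizontal axis, %) of merged regions by the lists that hold a peak in them, for the densest window of 1 Mb and the remainder of chromosomes 3 and 7 and for all nuclear chromosomes, with the number of regions beside each bar. Regions in all 3 lists make up 52.8% and 54.2% of the windows and 11.3% and 20.2% of the remainders.

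Peaks in all lists were the higher ones on both chromosomes. In 93-11 the median scaled pileup of peaks in all 3 lists was 4.50 on chromosome 3 and 3.40 on chromosome 7, against 1.70 and 1.80 for peaks of 93-11 alone. In LYP9 it was 4.37 and 3.27 against 1.59 and 1.69. In PA64s it was 3.01 and 2.60 against 1.46 and 1.55. The lists give no values below their thresholds, so whether a peak absent from a list fell just under its threshold was not tested.

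The hybrid LYP9 inherits 1 set of nuclear chromosomes from each parent, and its peaks were sorted by the parents that also had them. Of its 184 peaks on chromosome 3, 74 (40.2%, 33.1 to 47.7) were in both parents, 51 in 93-11 alone, 11 in PA64s alone and 48 in neither. Of its 278 on chromosome 7, 126 (45.3%, 39.4 to 51.4) were in both, 77 in 93-11 alone, 13 in PA64s alone and 62 in neither. Over the nuclear chromosomes 40.7% of LYP9 peaks were in both parents, 31.2% in 93-11 alone, 4.64% in PA64s alone and 23.5% in neither, and the shares of chromosomes 3 and 7 lay near these. The share found in 93-11 alone was 27.7% on both chromosomes. The share in neither parent was 26.1% on chromosome 3 (19.9 to 33.1) and 22.3% on chromosome 7 (17.5 to 27.7). Of the peaks in neither parent, 4 of the 48 and 7 of the 62 lay in the densest window, against 73 of 184 and 86 of 278 of all LYP9 peaks. Peaks of LYP9 alone were also the lower ones over the nuclear chromosomes, with a median scaled pileup of 1.59 against 3.67 in all lists. Pileups were higher in the windows, so these counts do not separate position from height.

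Parental peaks absent from the other parent recurred in the hybrid at a share that was higher in value for 93-11. On chromosome 3, LYP9 had 49 of 135 such peaks of 93-11 (36.3%, 28.2 to 45.0) and 11 of 59 of PA64s (18.6%, 9.69 to 30.9). On chromosome 7 it had 79 of 182 (43.4%, 36.1 to 50.9) and 14 of 58 (24.1%, 13.9 to 37.2). The intervals of the parents overlapped on both chromosomes. Over the nuclear chromosomes the shares were 44.5% and 19.5%, so both chromosomes had the order seen over the genome. The lists differ in length, with 3970 nuclear peaks in 93-11 and 2396 in PA64s. These shares therefore do not separate the parent from list length or peak height, and the cause was not tested. Peaks that the parents shared were found in LYP9 in 87.2% (75 of 86) and 89.3% (125 of 140) of cases counted from 93-11, against 91.9% over the nuclear chromosomes. In the densest windows these were 48 of 49 and 58 of 62, and elsewhere 27 of 37 and 67 of 78.

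At regions with exactly 1 peak in each list, the lists were compared in height. There were 71 such regions on chromosome 3 and 117 on chromosome 7. The median ratio of LYP9 to 93-11 in scaled pileup was 0.969 on chromosome 3 (0.926 to 0.993) and 0.948 on chromosome 7 (0.935 to 0.993). The ratio of PA64s to 93-11 was 0.707 (0.662 to 0.754) and 0.747 (0.696 to 0.791). PA64s was the higher of these parents at 6 of 71 and 13 of 117 regions. Over the 1352 such nuclear regions the ratios were 0.948 and 0.722, close to those of both chromosomes. All tags of a library, organelle tags included, enter the scaling, so a common shift between lists cannot be told apart from a different share of organelle tags. LYP9 lay between its parents at 45 of 71 regions of chromosome 3 and 60 of 117 of chromosome 7, at or above the higher parent at 23 and 41, and at or below the lower at 3 and 16. Its median over the mean of the parents was 1.12 (1.08 to 1.16) and 1.10 (1.07 to 1.15). Over the 1352 nuclear regions it was 1.10 (1.09 to 1.11), near the values of both chromosomes. There LYP9 lay between its parents at 786 regions, at or above the higher at 417 and at or below the lower at 149. Summits lay close together. The median distance from 93-11 was 4 bp to LYP9 on both chromosomes, and to PA64s 3 bp on chromosome 3 and 6 bp on chromosome 7.

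The strongest common regions lay partly inside and partly outside the clusters. They are the 5 regions per chromosome in all lists with the highest mean percentile of the authors' −log10 p, and what they contain is not given, since no build is named for the coordinates. On chromosome 3 the first was from 28639272 to 28639451, outside the dense window, with a scaled pileup of 16.5 in 93-11, 15.8 in LYP9 and 13.4 in PA64s. Its pileups were 98.1% to 99.4% of 2 times the extension length, which would be a ceiling if a single tag were kept at each place. Before scaling, the pileups of this region were 165, 159 and 160 in 93-11, LYP9 and PA64s. On the nuclear chromosomes the highest pileup was 165, 162 and 160 in the same order. No nuclear peak exceeded 2 times the extension length, which was 166, 162 and 162. The headers give a maximum of 2 duplicate tags, and whether the pileups there were capped was not tested. The second, from 13467184 to 13468279, is the site of the longest peaks, with scaled pileups of 14.6, 13.4 and 9.71 on a background of 4.66, 4.49 and 2.71 times the genome-wide value.

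The third, from 13558275 to 13558438, had the highest fold of the chromosome in 93-11 and LYP9, 39.4 and 33.4, and 29.0 in PA64s, at scaled pileups of 8.79, 8.04 and 6.03. It lay at the edge of the cluster on a background of 1.05, 1.16 and 1.00. The fourth, from 3951639 to 3951872, had scaled pileups of 7.09, 6.75 and 5.44, and the fifth, from 13472651 to 13473054, had 10.4, 9.62 and 7.37. PA64s was the lowest list in scaled pileup at all 5 regions of chromosome 3. At the first of them LYP9 was the lowest before scaling, with 159 against 165 in 93-11 and 160 in PA64s.

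On chromosome 7 the first region was from 9953214 to 9953878, with a scaled pileup of 13.3 in 93-11, 12.8 in LYP9 and 7.70 in PA64s. Its peak was 665 bp long in 93-11 and 613 bp in LYP9 but 142 bp in PA64s. The second, from 9800999 to 9801354, showed the same, with scaled pileups of 10.9, 10.1 and 7.45 and lengths of 347, 351 and 133 bp. The third, from 25284604 to 25284789, went the other way, with a scaled pileup of 7.29 in 93-11, 8.24 in LYP9 and 9.88 in PA64s. PA64s was thus the highest list there, and LYP9 lay between its parents. The fourth, from 6400349 to 6400542, had scaled pileups of 7.99, 7.04 and 7.20, and the fifth, from 9597663 to 9597790, had 12.3, 11.6 and 8.54 on a background of 6.02, 5.67 and 4.31, with folds of only 9.59, 9.86 and 9.53.

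The strongest peaks of 1 list alone were lower in scaled pileup, though not always in fold, than all 5 common regions of the chromosome in the same list. On chromosome 3 they were, for 93-11, from 13371876 to 13371981 with a scaled pileup of 3.30 and a fold of 15.5, and from 13407275 to 13407365 with 3.60 and 6.30. For LYP9 they were from 13479635 to 13479716 with a scaled pileup of 5.95 and a fold of 4.49, and from 22175252 to 22175351 with 2.58 and 12.4. For PA64s they were from 19574102 to 19574203 with 3.43 and 16.5, and from 22472924 to 22473157 with 3.26 and 15.7. The peaks at 13407275, 13479635 and 19574102 had a peak of another list within 500 bp.

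On chromosome 7 the strongest peaks of 93-11 alone were from 6526287 to 6526553 with a scaled pileup of 4.40 and a fold of 20.7, and from 9655681 to 9655939 with 3.90 and 18.3. Those of PA64s alone were from 11604543 to 11604672 with 4.69 and 20.7, and from 12306841 to 12306962 with 3.26 and 15.7. Those of LYP9 alone were weaker in fold, from 12414686 to 12414771 with 2.48 and 11.9, and from 9556380 to 9556474 with 3.57 and 6.96, the last with peaks of other lists within 500 bp. Peaks of 1 list were scattered over both chromosomes. No window of 100 kb held more than 5 peaks of 1 list alone on chromosome 3 or more than 4 on chromosome 7. A window of chromosome 3 from 25300001 to 25400000 held 4 peaks of PA64s that no other list had, while 93-11 and LYP9 each had 1 peak in it. Whether the dense stretches of chromosomes 3 and 7 lie in blocks that the ancient duplication paired was not tested.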

How the data were processed

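Per the submitters' processing notes, the aligner was BWA 0.5.8. Per the file headers, the authors called peaks in each library with MACS 2.0.9 without a control, from alignments named unique and non-redundant, at a q-value cutoff of 0.01 with an effective genome of 390 Mb. The headers count 10007148 tags in 93-11, 10078296 in LYP9 and 11948210 in PA64s, and these totals set the depth. The deposited pileup is a coverage signal, unscaled; the deposited fold enrichment is a ratio to the local background, and −log10 p and −log10 q values are as deposited by the authors. No source used here names the genome build.

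From these, pileups were scaled to 1000000 tags and peaks were counted in windows of 1 Mb by their summit. Intervals are exact Poisson, Clopper-Pearson or order-statistic intervals at 95%; bounds of ratios and differences of medians and shares combine the ends of separate intervals. Named by rule were, per chromosome, the 5 strongest regions common to all lists, the 2 strongest peaks of each list alone, the 2 longest peaks of each list and the 3 densest windows. The members and rules were chosen with earlier results of these data known. Python 3.11.15, numpy 2.4.6, pandas 2.3.3, scipy 1.17.1 and matplotlib 3.10.9 were used, and the routines were tested on simulated data. Alternatives changed the score threshold, list length, windows, overlap rule and merging.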

Additional observations from a re-analysis of the deposited data

How the results depend on the processing

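The density ratio of chromosome 7 over chromosome 3 lay between 1.63 and 2.13 over 18 alternative values in the 3 lists, and its lower bound was above 1 in all of them. Of 94 alternative values for 16 comparisons, 92 stayed within the bounds of the values reported. Except for the density ratios these bounds include no difference, so a value could stay within them and still change direction. For the share of PA64s peaks in the densest 10% of windows, the difference of chromosome 7 from chromosome 3 was −12.4 percentage points as reported. It moved to −22.0 (−39.7 to −2.15) with only peaks of −log10 p of 15.2 or more. With peaks of local background over 2 times the genome-wide value left out it moved to −21.4 (−37.9 to −3.98). Both bounds then lie below 0. They do not take into account that the windows were picked by the counts of the same peaks. With only peaks of −log10 p of 15.2 or more, the ratio of median pileups in LYP9 moved from 1.04 to 0.833 (0.681 to 0.974). Both of its bounds then lie below 1. The difference between chromosomes 7 and 3 in regions common to all lists moved from 5.91 to −3.21 percentage points at that threshold. The cause of these moves was not tested. With that threshold the difference in PA64s peaks found in another list was −0.0424 percentage points, against 11.1 as reported. With peaks of local background over 2 times the genome-wide value left out, an alternative chosen after the data were seen, that difference was 22.4 percentage points (5.12 to 38.7). Both of its bounds then lie above 0. Ratios of median length and of median pileup changed direction under some alternatives and give no order of the chromosomes. Of the 12 peaks named as being in 1 list alone, 4 had a peak of another list within 500 bp. With the peaks of raised background left out, 6 of the 10 named common regions and 3 of these 12 lost peaks by construction, and the regions from 13467184, 13472651, 9953214 and 9597663 had none left. No paired analysis was possible because each cultivar had 1 library; leaving out a replicate was not possible either. Depth limits the comparison of peaks near the threshold of each list.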
